A study of Mus musculus with 8 samples.

Results

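The epithelium of mouse colon organoids was compared with the epithelium of colon assembloids in single-cell RNA sequencing (10x Genomics 3' v3 chemistry), with 2 libraries of each. Colon organoids are hollow structures grown from crypt cells in Matrigel. Assembloids are organoids that were set into Matrigel together with pre-cultured stromal cells of the colon and grown on an orbital shaker. All cells came from C57BL/6 mice, and the study used young adult males. The medium for organoids contained a surrogate Wnt, the GSK3 inhibitor CHIR-99021, R-spondin 1 and the BMP inhibitor noggin, whereas assembloids were cultured without these 4 factors. EGF and the TGF-beta receptor inhibitor A83-01 were in both media. The groups also differed in how cells were dissociated, as given below with the heat shock genes. Culture and dissociation cannot be told apart for any gene. The sources do not say outright in which medium the sequenced organoids stood, and this was taken as the maintenance medium. The study calls the libraries of a group biological replicates, but the labels do not say whether they came from separate mice or cultures. For the assembloids whose stromal cells were sequenced the study names 2 mice, and for the epithelial libraries it gives no number of mice. P-values measure only the spread between these samples.

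The cells compared were chosen by a rule on their own UMIs (unique molecular identifiers, 1 per captured RNA molecule). A barcode was kept with at least 500 genes, at most 10% mitochondrial UMIs, at least 1 UMI of Epcam, at most 1 of Col1a1 and Col1a2 together and at most 1 of Fcer1g, Tyrobp and C1qb together. Of 67464 barcodes in the 4 libraries, 42393 met the rule, out of 115502 barcodes in all 8 libraries of the series. They were 4828 and 6552 organoid cells and 24454 and 6559 assembloid cells. The limit on Epcam acted unevenly. Among cells within the gene and mitochondrial limits, 18.4% lacked Epcam in organoid library 2, with a median of 1188 UMIs. The share was 0.883% in organoid library 1 and 4.87% and 4.66% in assembloids. After its own filters the study states far fewer assembloid cells and somewhat more organoid cells, and its list of cells was not used here. UMIs were summed per library, which gave 187476373 and 90931808 UMIs for organoids and 150704683 and 103092262 for assembloids, and levels are given as counts per 1000000 (CPM) of these sums. Values for 2 libraries are always listed as library 1 and library 2. Fold changes and p-values adjusted over 18572 genes come from edgeR's quasi-likelihood test on the summed UMIs, and log2 fold changes are organoid minus assembloid, so a negative value is a lower level in organoids. A gene is called at an adjusted p under 0.05. Genes near 0 in 1 group, among them Gcg, Ifit3, Hes5 and Lyz1, passed the filter on low counts through the other group alone. Such a gene had to differ to be tested, so its call is a description of levels, though it counts in the share of its list. In such sums, fewer cells of a type and less RNA per cell cannot be told apart. Colon tissue epithelium, 2 libraries of crypts with 4391 and 4094 cells by the same rule, gives a level for orientation and was not part of the test.

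In the colon, stem cells at the crypt base divide under Wnt signals, which stromal cells present together with R-spondins and BMP antagonists. Their progeny move up, stop dividing, come under BMP signals and become absorptive colonocytes or secretory goblet, enteroendocrine and tuft cells. An organoid medium supplies the niche signals from outside and keeps most cells in a stem or progenitor state. The question of the comparison is how the epithelium of the co-culture, given no such factors, differs from that of organoids.

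Median UMIs per cell were 35360 and 10450 in organoids and 3503 and 13978 in assembloids, so library 1 of each group stands apart in opposite directions. Without organoid library 1, 2219 genes were higher and 2715 lower in organoids in place of the 3927 and 4980 given next. In each fit without 1 library, the lone library of that group is assumed to vary like those of the other group. Between 7 and 54 barcodes were shared by any 2 of the 4 libraries among the cells kept. RNA of the stroma was present in the assembloid sums. The 20 fibroblast markers together reached 292 and 78.3 CPM in assembloids, 1.25 and 2.03 CPM in organoids, and 17850 and 20750 CPM in the 2 libraries of assembloid stromal cells. Collagen genes Col1a1 and Col1a2 and the macrophage genes of the rule are held down by the rule itself. Over 18 fibroblast genes outside the rule, the assembloid epithelium stood at a median of 1.54% and 0.513% of the stromal level, with a range from 0.336% to 4.58% in library 1 and from 0.201% to 2.38% in library 2. From these medians, the share of each gene's assembloid level that stromal RNA could supply was computed, and it is given below where it is large. It is a central estimate and no limit, since the highest carry-over among the 18 genes would make each share several times larger. Epithelial and stromal libraries were counted with different Cell Ranger versions, and whether reads in introns were counted in either is not given in the sources used here. Macrophage complement genes C1qa and C1qc were at 0 in both organoid libraries.

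Of 18572 genes tested, 8907 (48.0%) were called, 3927 (21.1%) higher and 4980 (26.8%) lower in organoids. Among genes of at least moderate level, those with the largest fold changes upwards were headed by Lgr5, the R-spondin receptor that marks crypt stem cells. Next came the linker histone Hist1h1b, the adaptor Sorbs2 (4.06 on the log2 scale), the cadherin Cdh13 (4.05), the recombination gene Rad51b (3.06), Rrm2 of the ribonucleotide reductase, Cdca7, Ccnd1, the Rac activator Tiam1 (2.70) and the chromatin protein Hmga2 (2.70). Hmga2 is a gene of fetal and dividing tissue, and it stood at 167 and 284 CPM in organoids, 22.7 and 38.8 CPM in assembloids and 59.2 and 44 CPM in tissue. At the other end stood Dmbt1, a secreted protein that binds bacteria, the cornified envelope gene Sprr1a, the small heat shock gene Hspb1, the transmembrane mucin Muc3, the carbonic anhydrase Car1, the EGF receptor inhibitor Errfi1, the stress gene Gadd45a (-4.18), the receptor Erbb3, the gel-forming mucin Muc2 and Babam2 (-4.05), a subunit of a DNA repair complex. Of the 10 genes at each end, none overlapped between the groups, which the choice required, and over all genes tested the groups did not overlap for 41.2% higher and 33.4% lower in organoids.

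**Figure D1:**
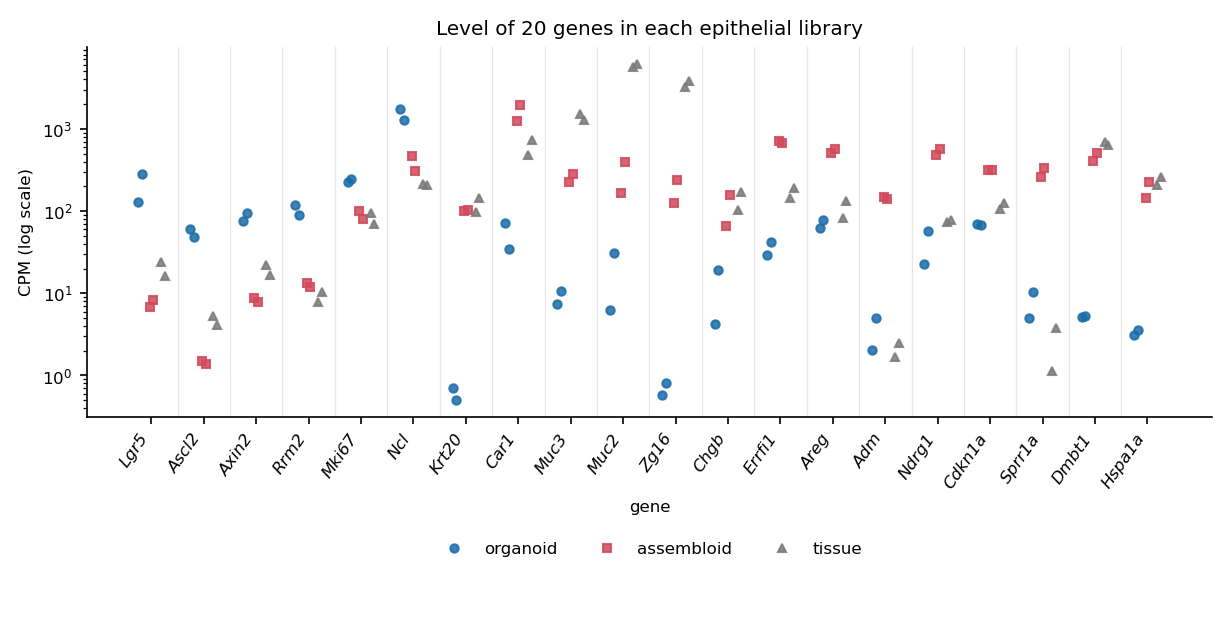
Level of 20 genes as CPM, on a log axis, with 1 point for each of the 2 organoid, 2 assembloid and 2 tissue libraries. Lgr5, Ascl2 and Axin2 sit higher in organoids than in assembloids or tissue, whereas Adm, Ndrg1 and Sprr1a sit highest in assembloids and Muc2 and Zg16 in tissue.

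**Figure D2:**
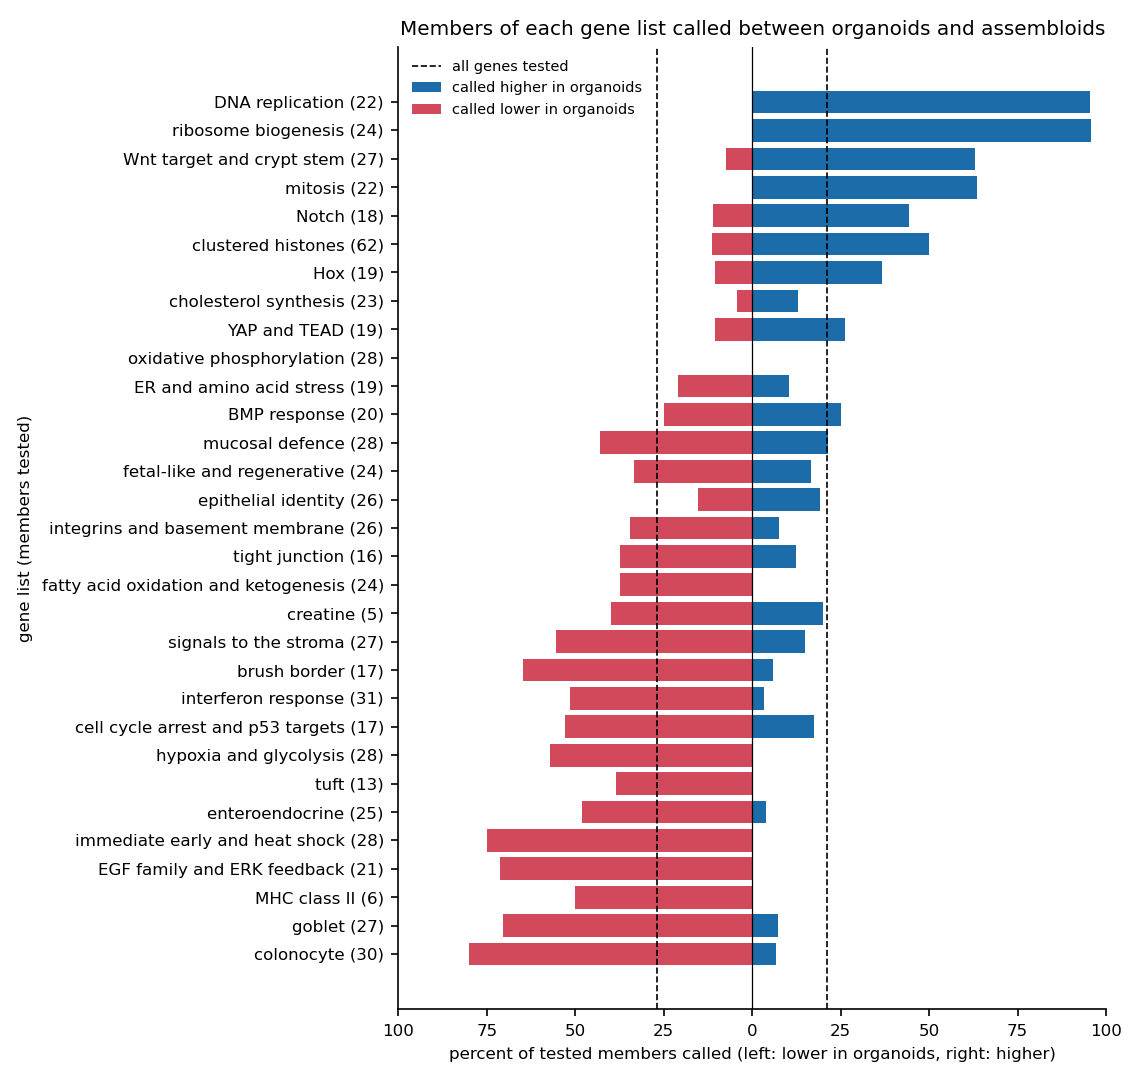
Percent of the tested members of each gene list, without the 4 marker lists of other cell types, that edgeR called at an adjusted p under 0.05, higher in organoids to the right and lower to the left of 0, with the number tested in brackets and the shares over all genes tested, 21.1% and 26.8%, as dashed lines. DNA replication and ribosome biogenesis lie furthest to the right, and colonocyte, immediate early and heat shock, EGF family and goblet genes furthest to the left of the lists drawn.

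Wnt target and crypt stem cell genes were higher in organoids for 17 of 27 members (63% against 21.1% of all genes tested), with a median log2 fold change of 1.72. Lgr5 stood at 128 and 284 CPM in organoids, 6.77 and 8.22 CPM in assembloids and 24.1 and 16.1 CPM in tissue (log2 fold change 4.57, SE 0.39, adjusted p = 3.26e-05). Ascl2, the transcription factor of the stem cell state, stood at 60.2 and 48.6 CPM in organoids, 1.51 and 1.38 CPM in assembloids and 5.34 and 4.12 CPM in tissue (log2 fold change 5.09, SE 0.34, adjusted p = 1.16e-05). The organoid level of both exceeded that of tissue, and the assembloid level was below it. Smoc2, a secreted matrix protein of stem cells, had 43.5 and 54.2 CPM in organoids against 1.65 and 1.89 in assembloids (log2 fold change 4.62, SE 0.28, adjusted p = 6.69e-06), with 27.6 and 24.4 CPM in tissue. Some feedback genes of the pathway were among those higher. Axin2, part of the complex that degrades beta-catenin, was 9.19-fold higher (log2 fold change 3.20, SE 0.29, adjusted p = 3.88e-05). The ubiquitin ligases Rnf43 and Znrf3, which remove Wnt receptors from the surface, had log2 fold changes of 2.43 and 2.60, the Dishevelled binding protein Nkd1 2.64 and the receptor Tnfrsf19 3.50. The targets Myc (2.01), Ccnd1 (2.70), Cdca7 (2.87), Lef1 (2.28) and Sox9 (1.14) were also called. Lef1 and Sox9 lost their calls under some settings, given with the log2 fold change there, Lef1 without organoid 2 (1.53, adjusted p = 0.101) and Sox9 without assembloid 2 (1.03, adjusted p = 0.123).

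Other members did not follow. Ephb2, a receptor that holds cells in the lower crypt, stood at 117 and 252 CPM against 86.1 and 122 CPM (log2 fold change 0.63, SE 0.36, adjusted p = 0.171) and Cd44 had a log2 fold change of 0.76 (adjusted p = 0.0651). The Wnt receptor Fzd7 was lower in organoids, at 1.24 and 2.18 CPM against 5.33 and 5.11 CPM (log2 fold change -1.82, SE 0.35, adjusted p = 0.00215). Prom1 was lower too (log2 fold change -0.90, SE 0.34, adjusted p = 0.0477), and its value stood at the limit of the test. Prom1 lost its call without assembloid 1 or organoid 1 or assembloid 2, without the marker limits on cells, with cells thinned to 2000 UMIs or without the 6% deepest cells (log2 fold change -1.0 to -0.62, adjusted p up to 0.299).

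Sp5, a transcription factor induced by Wnt through TCF sites, was at 16.9 and 14.2 CPM in organoids, 0.717 and 0.805 CPM in assembloids and 0.0858 and 0.191 CPM in tissue (log2 fold change 4.21, SE 0.33, adjusted p = 1.98e-05). Its promoter is printed because Sp5 had the largest change among the called members whose window holds the TCF letters CTTTGAT. The window covers 250 bases before to 50 after the RefSeq start on GRCm38.p6, chr2:70474673-70474972 (plus strand), and the match, in capitals, begins 104 bases before the start.
Sp5: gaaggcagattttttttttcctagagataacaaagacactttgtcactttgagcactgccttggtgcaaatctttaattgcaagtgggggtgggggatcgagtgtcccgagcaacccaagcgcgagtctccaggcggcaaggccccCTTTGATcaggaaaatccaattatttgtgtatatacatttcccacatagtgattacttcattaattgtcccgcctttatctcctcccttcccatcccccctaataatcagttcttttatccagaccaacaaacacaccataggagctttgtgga
Of 12 called members with a window, 2 held CTTTGAT on either strand, and of 17 tested members with a window the number was also 2. It is found in 3.73% of 32851 windows of this length, and in 4.29% of 27025 genes. A match is a run of letters only.

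Genes of DNA replication were higher in organoids for 21 of 22 members (95.5% against 21.1% of all genes), with a median log2 fold change of 2.17. Rrm2, a subunit of ribonucleotide reductase, stood at 117 and 90.9 CPM in organoids, 13.4 and 11.8 CPM in assembloids and 7.76 and 10.5 CPM in tissue (log2 fold change 2.90, SE 0.34, adjusted p = 0.000154). The replication licensing factor Cdc6 had 31.7 and 30.7 CPM in organoids against 4.49 and 3.78 CPM in assembloids (log2 fold change 2.75, SE 0.29, adjusted p = 8.45e-05), and cyclin E1 (Ccne1) had 32.9 and 23.1 against 4.49 and 3.29 CPM (log2 fold change 2.71, SE 0.36, adjusted p = 0.000286). The helicase genes Mcm2 to Mcm7 had log2 fold changes from 1.92 for Mcm2 to 2.43 for Mcm4. Pcna, the sliding clamp, missed the limit at 177 and 181 against 93 and 94.4 CPM (log2 fold change 0.78, SE 0.31, adjusted p = 0.0629). For Cdc6 the assembloid level was near that of tissue, which stood at 3.54 and 4.78 CPM. For Rrm2 both assembloid libraries lay somewhat above both tissue libraries.

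Genes of mitosis were higher for 14 of 22 members (63.6% against 21.1% of all genes), with a smaller median of 1.17. The count was 2 without assembloid library 2 and 9 without organoid library 1, with medians above 0 throughout. The mitotic kinase Plk1 stood at 65.1 and 59.2 CPM in organoids, 16.3 and 12.8 CPM in assembloids and 11 and 8.69 CPM in tissue (log2 fold change 1.93, SE 0.30, adjusted p = 0.000743). Cdc20, which activates the anaphase-promoting complex, followed at 94.9 and 80.3 against 26.9 and 22.1 CPM (log2 fold change 1.69, SE 0.32, adjusted p = 0.00189). Mki67, the usual proliferation marker, was 2.36-fold higher (log2 fold change 1.24, SE 0.34, adjusted p = 0.0123), while Top2a stood at 393 and 421 against 265 and 152 CPM (log2 fold change 0.77, SE 0.40, adjusted p = 0.139). The 2 assembloid libraries lay apart for Top2a and Hmgb2, library 1 being higher in both. Assembloid levels of Top2a, Tubb5 and Hmgb2 remained above those of tissue, at 81.3 and 62, 86.6 and 99 and 400 and 304 CPM. Mki67 lost its call without assembloid 1 or assembloid 2 (log2 fold change 1.04 to 1.5, adjusted p up to 0.207).

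The window of Plk1 is printed because Plk1 led the called mitotic genes and holds the cell cycle homology region (CHR) letters TTTGAA. It lies at chr7:122159185-122159484 (plus strand) of GRCm38.p6, and the match, in capitals, begins 30 bases after the RefSeq start.
Plk1: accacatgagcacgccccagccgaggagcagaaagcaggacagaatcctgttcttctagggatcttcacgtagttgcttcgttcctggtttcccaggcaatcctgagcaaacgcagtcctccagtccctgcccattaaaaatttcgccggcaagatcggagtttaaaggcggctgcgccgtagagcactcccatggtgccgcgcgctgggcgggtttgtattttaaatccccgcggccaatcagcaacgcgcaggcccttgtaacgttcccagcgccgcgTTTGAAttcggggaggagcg
TTTGAA was found on either strand in 8 of 11 called mitotic members with a window, and in 17.9% of all windows or 20.2% of all genes. Among all tested mitotic members with a window, called or not, 13 of 19 held it.

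Clustered histone genes took both directions. Of 62 tested, 31 (50% against 21.1% of all genes) were higher and 7 (11.3% against 26.8%) lower in organoids, with a median of 1.10. The median was 1.77 without assembloid library 1 and 0.67 without assembloid library 2, and 11 were higher without organoid library 1. Hist1h1b, a linker histone made in S phase, stood at 361 and 158 CPM in organoids against 14 and 7.93 CPM in assembloids (log2 fold change 4.44, SE 0.58, adjusted p = 0.000310), and Hist1h2ap at 2785 and 3244 against 725 and 356 CPM (log2 fold change 2.28, SE 0.49, adjusted p = 0.00369). In the other direction, Hist1h2bc stood at 37.6 and 29.3 against 215 and 260 CPM (log2 fold change -2.95, SE 0.37, adjusted p = 0.000211), with 285 and 266 CPM in tissue, and Hist1h1c had a log2 fold change of -1.44. Histone copies are nearly alike, so how reads were divided among them is uncertain. Their RNAs mostly lack a poly(A) tail, which the 3' kit primes on. Hist1h2ap lost its call without assembloid 2 (log2 fold change 1.82, adjusted p = 0.0537).

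Ribosome biogenesis genes, which are Myc targets in many tissues, were higher in organoids for 23 of 24 members (95.8% against 21.1% of all genes), with a median of 1.80. Ppan, a factor of large subunit assembly, stood at 65.5 and 53.3 CPM in organoids, 5.53 and 7.37 CPM in assembloids and 12.6 and 14.4 CPM in tissue (log2 fold change 3.08, SE 0.31, adjusted p = 7.12e-05). The nucleolar genes Nop16 (2.66) and Nolc1 (2.50) and nucleolin, Ncl (1.82), were called. Ncl stood at 1735 and 1295 CPM in organoids and 465 and 308 CPM in assembloids. Nucleophosmin, Npm1, was not called at 2971 and 1901 against 1089 and 1232 CPM (log2 fold change 0.96, SE 0.44, adjusted p = 0.0976). Ncl lost its call without assembloid 2 (log2 fold change 1.5, adjusted p = 0.103).

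Of 17 genes of cell cycle arrest and p53 targets, 9 (52.9% against 26.8% of all genes) were lower and 3 (17.6% against 21.1%) higher in organoids, the latter 1 without organoid library 1. The atypical cyclin Ccng2 stood at 4.17 and 7.96 CPM in organoids, 63.6 and 73.4 CPM in assembloids and 22 and 26.4 CPM in tissue (log2 fold change -3.70, SE 0.31, adjusted p = 2.98e-05). The stress cytokine Gdf15 followed at 22.4 and 24.6 against 156 and 207 CPM (log2 fold change -3.10, SE 0.32, adjusted p = 8.45e-05). The inhibitors of cyclin-dependent kinases Cdkn2b (10.2 and 7.48 against 56.3 and 70.1 CPM, log2 fold change -2.96) and Cdkn1a (69 and 68 against 318 and 312 CPM, -2.36) were lower in organoids, and Cdkn1b less so (-1.18). Assembloid Cdkn1a stood above tissue, at 105 and 125 CPM there. Besides Gdf15 and Cdkn1a, both lower in organoids, p53 targets took both directions. Mdm2 (-1.13), Perp (-1.31) and Trp53inp1 (-1.77) were lower in organoids, whereas Phlda3 (1.48) and Bax (1.08, adjusted p = 0.0442) were higher. Perp and Bax lost their calls under some settings, given with the log2 fold change there, Perp without assembloid 2 (-1.23, adjusted p = 0.0587) and Bax without assembloid 1 or organoid 1 or assembloid 2, with cells thinned to 2000 UMIs or without the 6% deepest cells (0.52 to 1.18, adjusted p up to 0.237).

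Colonocyte genes had the lowest median of the epithelial lists. 24 of 30 were lower in organoids (80.0% against 26.8% of all genes), 2 were higher, and the median was -3.63. Krt20, the keratin of surface cells, stood at 0.704 and 0.506 CPM in organoids, 101 and 102 CPM in assembloids and 96.4 and 144 CPM in tissue (log2 fold change -7.49, SE 0.41, adjusted p = 6.28e-06). The assembloid libraries thus lay at the level of tissue for this gene. Clca4a, of the CLCA family, stood at 0.533 and 0.407 against 62.5 and 46.4 CPM (log2 fold change -6.98, SE 0.41, adjusted p = 6.31e-06), with 16.6 and 38.2 CPM in tissue. Its neighbour Clca4b, a close copy, had a log2 fold change of -6.26. Car1 stood at 71.9 and 35 CPM in organoids, 1244 and 1962 CPM in assembloids and 480 and 730 CPM in tissue (log2 fold change -4.98, SE 0.57, adjusted p = 0.000133), so that assembloids exceeded both. Lypd8, which keeps flagellated bacteria off the surface, stood at 378 and 296 against 1296 and 1754 CPM (log2 fold change -2.30, SE 0.42, adjusted p = 0.00154) and reached 4600 and 4698 CPM in tissue.

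Assembloids lay between organoids and tissue in several other genes of the list. Muc3 stood at 7.35 and 10.6 CPM in organoids, 225 and 283 CPM in assembloids and 1529 and 1290 CPM in tissue (log2 fold change -5.00, SE 0.36, adjusted p = 1.35e-05). The chloride and bicarbonate exchanger Slc26a3 stood at 0.880 and 0.924, 13.7 and 19.5 and 181 and 199 CPM in that order (log2 fold change -4.34). The carbonic anhydrase Car4 stood at 0.0960 and 0.0440, 2.52 and 1.24 and 174 and 160 CPM (-4.80). In assembloids the guanylin gene Guca2a (-3.04) was at 80.5 and 136 CPM against 1636 and 1954 CPM in tissue, and the fatty acid binding protein Fabp2 (-4.29) at 25.7 and 54.9 against 173 and 217 CPM. Both bile acid transporter subunits Slc51a (-3.83) and Slc51b (-5.51) were called, and Slc51a was higher in assembloids, at 1.56 and 2.51 CPM, than in tissue, at 0.279 and 0.328 CPM. The water channel Aqp8 (-5.42) was at 22.6 and 25.3 CPM in assembloids and 39 and 46.1 CPM in tissue. The exceptions were the carbonic anhydrase Car2, at 1514 and 975 CPM in organoids against 435 and 380 CPM in assembloids (log2 fold change 1.48, SE 0.44, adjusted p = 0.0178), and the water channel Aqp4, at 199 and 171 against 45.6 and 67.8 CPM (log2 fold change 1.58, SE 0.34, adjusted p = 0.00373). Aqp8, Car2 and Aqp4 lost their calls under some settings, given with the log2 fold change there, Aqp8 without assembloid 1 or assembloid 2, with library sizes alone or with cells thinned to 2000 UMIs (-5.41 to -4.87, adjusted p up to 0.475), Car2 without assembloid 1 or organoid 1 or assembloid 2 (0.96 to 1.7, adjusted p up to 0.150) and Aqp4 without assembloid 1 (1.41, adjusted p = 0.0740).

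The brush border is the carpet of microvilli on absorptive cells, and 11 of 17 of its genes (64.7% against 26.8% of all genes) were lower in organoids, with a median of -1.01. Without either assembloid library 7 were called lower. Tmigd1, an adhesion receptor of mature enterocytes, stood at 0.272 and 0.176 CPM in organoids, 35 and 35.4 CPM in assembloids and 8.66 and 9.83 CPM in tissue (log2 fold change -7.36, SE 0.39, adjusted p = 6.09e-06). The actin bundler Espn stood at 2.06 and 2.53 against 28.1 and 31.6 CPM (log2 fold change -3.86, SE 0.27, adjusted p = 1.19e-05). The protocadherins Cdhr2 (-2.03) and Cdhr5 (-2.07) that link microvilli and the motor Myo1a (-2.00) were called, while villin, Vil1, was not (97.9 and 120 against 120 and 135 CPM, log2 fold change -0.39, SE 0.30, adjusted p = 0.299). The scaffold Slc9a3r1 was higher in organoids (log2 fold change 0.90, SE 0.29, adjusted p = 0.0271). Slc9a3r1 lost its call without assembloid 1 or organoid 1 or assembloid 2 or with cells thinned to 2000 UMIs (log2 fold change 0.64 to 0.95, adjusted p up to 0.203).

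Of 16 tight junction genes tested, 6 (37.5%) were lower and 2 (12.5%) higher, against 26.8% and 21.1% of all genes, and 1 was higher without either library 1. Cldn4, a claudin that seals the junction, stood at 45 and 74.8 CPM in organoids and 216 and 300 CPM in assembloids (log2 fold change -2.29, SE 0.34, adjusted p = 0.000568), far above the 6.82 and 8.44 CPM of tissue. Occludin, Ocln (-1.78), the scaffold Tjp1 (-1.41) and Cldn23 (-1.87) were also lower in organoids. The pore-forming Cldn2 stood at 26.7 and 37.5 against 7.02 and 6.31 CPM (log2 fold change 2.08, SE 0.26, adjusted p = 0.000222) and Cldn15 at 67.6 and 69.7 against 18.9 and 35.7 CPM (log2 fold change 1.20, SE 0.31, adjusted p = 0.00977), both higher in organoids. Tjp1 and Cldn15 lost their calls under some settings, given with the log2 fold change there, Tjp1 without assembloid 2 (-1.32, adjusted p = 0.0503) and Cldn15 without assembloid 1 or organoid 1 (0.89 to 1.08, adjusted p up to 0.173).

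Goblet cell genes were lower in organoids for 19 of 27 members tested of 28 (70.4% against 26.8% of all genes), with a median of -2.02, and 2 were higher, or 1 without either library 1. Muc2 stood at 6.29 and 31.1 CPM in organoids, 168 and 401 CPM in assembloids and 5662 and 6198 CPM in tissue (log2 fold change -4.16, SE 0.66, adjusted p = 0.000787). The groups did not overlap, but each group's libraries differed by more than 2-fold. Zg16, a lectin of mucus granules, stood at 0.576 and 0.803 against 126 and 238 CPM (log2 fold change -8.20, SE 0.46, adjusted p = 6.31e-06), with 3207 and 3828 CPM in tissue. Clca1, a protease of the mucus layer, stood at 0.485 and 0.506 against 6.93 and 17.6 CPM (log2 fold change -4.73, SE 0.44, adjusted p = 4.89e-05). Assembloids stayed well below tissue in these 3 genes. The protein disulphide isomerase Agr2 (153 and 128 against 533 and 1304 CPM) and the trefoil factor Tff3 (149 and 206 against 757 and 1346 CPM) had log2 fold changes of -2.80 and -2.72. The calcium pump Atp2c2 was above tissue in assembloids, at 1.88 and 2.58 CPM in organoids, 233 and 165 CPM in assembloids and 120 and 127 CPM in tissue (log2 fold change -6.68, SE 0.43, adjusted p = 9.16e-06). Spdef, a late factor of the lineage, was lower in organoids (-2.02). Atoh1, which commits progenitors to the secretory fate, was higher in organoids, at 6.31 and 4.82 against 1.06 and 2.55 CPM (log2 fold change 1.54, SE 0.43, adjusted p = 0.0149). Spdef and Atoh1 lost their calls under some settings, given with the log2 fold change there, Spdef without organoid 1 (-1.82, adjusted p = 0.0725) and Atoh1 without organoid 1 (1.16, adjusted p = 0.184).

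Of 25 enteroendocrine genes, 12 (48% against 26.8% of all genes) were lower in organoids and 1 (4.0% against 21.1%) higher, with a median of -1.43. The median was -0.76 without assembloid library 2, and 7 were lower without organoid library 1. The gene that was higher is Neurog3, which specifies the lineage in progenitors, at 3.02 and 2.95 CPM against 0.259 and 0.970 CPM (log2 fold change 2.19, SE 0.56, adjusted p = 0.00892), with 1.37 and 0.683 CPM in tissue. Hormone genes lower in organoids included Cck (0.101 and 0.0110 against 12.4 and 11.6 CPM, log2 fold change -7.57, SE 0.62, adjusted p = 2.98e-05), Gcg (0.0213 and 0.0110 against 0.398 and 3.71 CPM, log2 fold change -6.82, SE 1.11, adjusted p = 0.000915) and Pyy (1.02 and 5.97 against 10.1 and 66.7 CPM, log2 fold change -3.67, SE 0.91, adjusted p = 0.0111). The assembloid libraries lay far apart for Gcg and Pyy, library 2 being higher, and tissue stood at 101 and 93.3 and 425 and 376 CPM. Gcg had 4 and 1 UMIs in organoids, Cck 19 and 1 and Tph1 14 and 22. These genes, and further called members not named here, passed the filter on low counts through assembloids alone. Their calls describe levels, and the 12 called lower include them. Stromal RNA could supply 34% of the assembloid Cck level. The serotonin enzyme Tph1 (0.0747 and 0.242 against 2.52 and 7.06 CPM, log2 fold change -5.16) and the granins Chga (-2.25) and Chgb (-3.48) were also lower. Tuft cell genes were sparse. Of 18 members 13 passed the filter and 5 (38.5% against 26.8% of all genes) were lower in organoids, among them the channel Trpm5 (log2 fold change -2.21, SE 0.69, adjusted p = 0.0239). Without organoid library 1 edgeR called 0 lower, and without organoid library 2 it called 2 of 15 tested. For Dclk1 (-2.73), stromal RNA could supply 71.8% of the assembloid level. Neurog3, Gcg, Pyy, Chga, Trpm5 and Dclk1 lost their calls under some settings, given with the log2 fold change there, Neurog3 without organoid 1 (2.02, adjusted p = 0.116), Gcg without organoid 1 (-7.61, adjusted p = 0.0501), Pyy without organoid 1, with library sizes alone or with cells thinned to 2000 UMIs (-3.47 to -2.74, adjusted p up to 0.339), Chga without organoid 1 (-2.17, adjusted p = 0.0948), Trpm5 without assembloid 1 or organoid 1 or organoid 2 (-2.28 to -0.69, adjusted p up to 0.365) and Dclk1 without organoid 1 or organoid 2 (-3.38 to -2.21, adjusted p up to 0.112).

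To see how many cells carried these RNAs at equal depth, each cell was thinned to 2000 UMIs, and shallower cells were left out. This kept 4753 of 4828 and 4546 of 6552 organoid cells, 18809 of 24454 and 5917 of 6559 assembloid cells and 2428 of 4391 and 2744 of 4094 tissue cells, so the shares describe the deeper cells. Of organoid cells, 19.7% and 38.5% then held Lgr5, against 1.24% and 1.45% of assembloid cells, 4.24% and 2.99% of tissue cells and 0.229% and 0.103% of stromal cells, which should lack it. Ascl2 was held by 10.9% and 8.43% of organoid cells and 0.229% and 0.203% of assembloid cells, and the latter shares overlapped the 0.364% and 0.217% of stromal cells. Krt20 was held by 0.105% and 0.0880% of organoid cells, 15.9% and 14.5% of assembloid cells and 11.7% and 18.1% of tissue cells, with 0% and 0.0229% of stromal cells. Car1 was held by 9.38% and 4.71% of organoid and 66.4% and 53.5% of assembloid cells (stroma 0.0404% and 0.0343%). Muc2 was held by 0.863% and 2.62% of organoid, 14.5% and 16.7% of assembloid and 57% and 74.2% of tissue cells (stroma 0.404% and 0.286%). Without thinning, Lgr5 was held by 72.8% and 60.9% of organoid and 3.09% and 7.12% of assembloid cells, Krt20 by 0.518% and 0.321% and 26.4% and 32.7% and Muc2 by 3.56% and 7.69% and 25.2% and 47.8%. Median depth of the stromal cells before thinning was 14490 and 13133 UMIs. With 2 libraries against 2, an exact permutation test (2-sided) cannot go below p = 0.33, so the shares carry no test of their own. Reads from free RNA of other cells are part of each share.

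**Figure D3:**
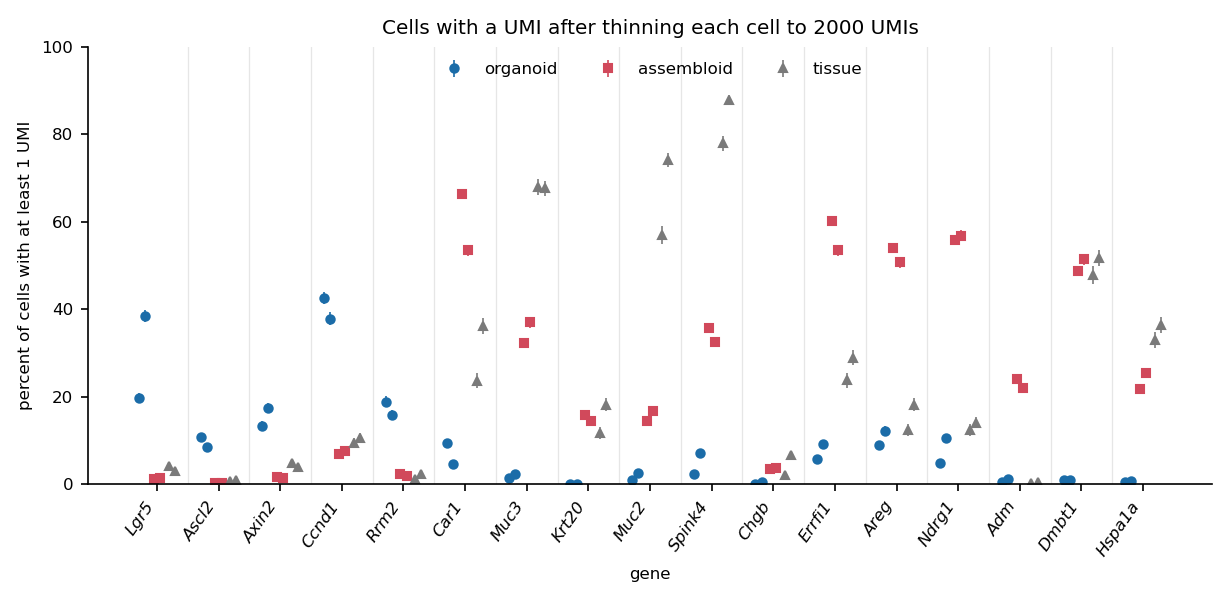
Percent of cells with at least 1 UMI of a gene after thinning every cell to 2000 UMIs, with 1 point per organoid, assembloid and tissue library and its exact (Clopper-Pearson) 95% interval, which covers counting error only. Lgr5 was held by 19.7% and 38.5% of organoid and 1.24% and 1.45% of assembloid cells, and Krt20 by 0.105% and 0.0880% and 15.9% and 14.5%.

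EGF family genes and the feedback inhibitors that ERK induces were lower in organoids for 15 of 21 members (71.4% against 26.8% of all genes), with a median of -1.53. The other 6 did not pass the test. EGF was in both media, and why these genes differed was not tested. Among inhibitors, Errfi1, which binds and blocks the EGF receptor kinase, stood at 29.6 and 42 CPM in organoids, 715 and 666 CPM in assembloids and 144 and 191 CPM in tissue (log2 fold change -4.46, SE 0.40, adjusted p = 3.88e-05). At 2000 UMIs a cell, 5.74% and 9.26% of organoid and 60.2% and 53.5% of assembloid cells held it, against 18.2% and 24.4% of stromal cells, and stromal RNA could supply 0.191% of the assembloid level. The ERK phosphatases Dusp4 (-3.01), Dusp5 (-3.27) and Dusp6 (-1.97) and the Sprouty genes Spry2 (-1.23) and Spry4 (-1.53) were called. Among receptors, Erbb3, a partner of ErbB2 that binds neuregulins, stood at 32.9 and 53.4 CPM in organoids, 808 and 531 CPM in assembloids and 103 and 80.1 CPM in tissue (log2 fold change -4.17, SE 0.44, adjusted p = 9.39e-05), and Egfr (-1.01) and Erbb2 (-0.71) changed less. Among ligands, amphiregulin, Areg, stood at 61.6 and 77.2 against 511 and 569 CPM (log2 fold change -3.13, SE 0.36, adjusted p = 0.000146). Ereg (-2.92), Hbegf (44.7 and 59 against 176 and 239 CPM, log2 fold change -2.16) and Btc (-1.39) were also lower in organoids. The neuregulin gene Nrg1, at 0.245 and 0.704 against 9.31 and 4.5 CPM (log2 fold change -4.16, SE 0.55, adjusted p = 0.000337), had a stromal share estimated at 39.1%. The targets Etv5 and Spry1 and the ligand Tgfa were not called. Spry2, Spry4, Egfr and Erbb2 lost their calls under some settings, given with the log2 fold change there, Spry2 without organoid 1 (-0.96, adjusted p = 0.0543), Spry4 without organoid 1 or with cells thinned to 2000 UMIs (-1.25 to -1.12, adjusted p up to 0.140), Egfr without organoid 1 or assembloid 2 (-0.78 to -0.68, adjusted p up to 0.189) and Erbb2 without assembloid 1 or organoid 1 or assembloid 2, with library sizes alone, with no filter on low counts or without the marker limits on cells (-0.75 to -0.49, adjusted p up to 0.212).

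Of 20 BMP genes tested, 5 were higher and 5 lower in organoids (25% each, near the shares of all genes), with a median of -0.16, which ran from -0.17 to 0.13 when 1 library was left out. Leaving out 1 library left 3 called higher whichever it was, and as few as 2 lower, without organoid library 1. Among ligands, Bmp2, which surface cells of the colon make, stood at 4.78 and 6.36 CPM in organoids, 38 and 43.8 CPM in assembloids and 31.5 and 32.1 CPM in tissue (log2 fold change -3.05, SE 0.26, adjusted p = 2.99e-05). The Bmp4 level of assembloids (1.81 and 0.310 CPM) was of the size stromal RNA could supply, estimated at 198% of it. Bmp7 was higher in organoids at 0.395 and 0.726 against 0.139 and 0.126 CPM (log2 fold change 1.85, SE 0.56, adjusted p = 0.0203). Among targets, Id1 stood at 253 and 175 CPM in organoids, 72.6 and 89.8 CPM in assembloids and 349 and 418 CPM in tissue (log2 fold change 1.29, SE 0.37, adjusted p = 0.0156), and Id2 rose with it at 70.1 and 59.3 against 22.4 and 26.5 CPM (log2 fold change 1.27, SE 0.29, adjusted p = 0.00491). The inhibitor Smad7, which TGF-beta also induces, was lower in organoids (-1.35), and so was Smad9 (-1.54). The transcription factor Atoh8 was higher at 3.36 and 2.45 against 0.372 and 0.252 CPM (log2 fold change 3.06, SE 0.50, adjusted p = 0.000889). Id4 was near the limit of detection at 0.117 and 0.132 against 0.239 and 0.437 CPM (log2 fold change -1.56, SE 0.57, adjusted p = 0.0442), with 2.12 and 3.03 CPM in tissue. Bmp4, Bmp7, Id1, Smad9 and Id4 lost their calls under some settings, given with the log2 fold change there, Bmp4 without organoid 1 (-5.31, adjusted p = 0.0679), Bmp7 without organoid 1 or organoid 2, in DESeq2 or without the marker limits on cells (0.7 to 2.14, adjusted p up to 0.272), Id1 without assembloid 1 or organoid 1 or assembloid 2 (0.83 to 1.37, adjusted p up to 0.130), Smad9 without organoid 1 or organoid 2 (-1.66 to -1.34, adjusted p up to 0.141) and Id4 without organoid 1 or assembloid 2 or organoid 2, in DESeq2, with library sizes alone, with no filter on low counts, with the replicate number as a block, with no stromal or macrophage UMI allowed or without the 6% deepest cells (-1.61 to -1.16, adjusted p up to 0.228).

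The window of Id4 is printed as that of the called BMP gene with the largest change whose promoter holds the SMAD letters GGCGCC, a palindrome. It lies at chr13:48260866-48261165 (plus strand) of GRCm38.p6, with the match 148 bases before the start.
Id4: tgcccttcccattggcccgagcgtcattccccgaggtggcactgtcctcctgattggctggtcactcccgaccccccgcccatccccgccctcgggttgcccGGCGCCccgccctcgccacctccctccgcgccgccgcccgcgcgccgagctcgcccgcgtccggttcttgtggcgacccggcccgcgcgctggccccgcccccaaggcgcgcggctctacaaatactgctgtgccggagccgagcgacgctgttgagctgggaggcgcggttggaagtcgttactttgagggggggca
GGCGCC was found in 4 of 6 called members with a window, 2 of them higher and 2 lower in organoids, and in 11.9% of all windows or 13.4% of all genes. Among all tested BMP members with a window, called or not, 6 of 14 held it.

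Notch genes were higher in organoids for 8 of 18 members (44.4% against 21.1% of all genes) and lower for 2 (11.1% against 26.8%), with a median of 1.10. The median was 0.38 with cells thinned to 2000 UMIs, 0.72 without the 6% deepest cells and 0.65 without the marker limits on cells. The 2 called lower were 0 without assembloid library 1 and 1 without either organoid library. Notch signalling keeps progenitors dividing and away from the secretory fate. Among receptors, Notch1 had a log2 fold change of 1.86, while Notch2 stood at 10.8 and 24.9 against 9.81 and 12.6 CPM (log2 fold change 0.46, SE 0.31, adjusted p = 0.247). The glycosyltransferase Lfng, which tunes the receptors, stood at 11.3 and 10.9 CPM in organoids, 1.1 and 1.22 CPM in assembloids and 9.67 and 9.61 CPM in tissue (log2 fold change 3.11, SE 0.31, adjusted p = 7.40e-05). The ligand Dll4 (1.46), the feedback gene Nrarp (1.99) and the coactivator Maml2 (35.5 and 81.8 against 5.68 and 7.5 CPM, log2 fold change 2.95) were higher. Hes5 was higher (log2 fold change 4.10, SE 0.68, adjusted p = 0.000980) at low levels of 0.944 and 0.561 against 0.0332 and 0.0485 CPM. The DNA binding partner Rbpj was lower in organoids at 36.3 and 49 against 115 and 86.5 CPM (log2 fold change -1.44, SE 0.31, adjusted p = 0.00409). Dll4 and Rbpj lost their calls under some settings, given with the log2 fold change there, Dll4 without organoid 1 or organoid 2 (1.35 to 1.65, adjusted p up to 0.0921) and Rbpj without assembloid 1 (-1.1, adjusted p = 0.0608).

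Of 24 genes known from fetal and regenerating colon, 4 (16.7%) were higher and 8 (33.3%) lower in organoids, against 21.1% and 26.8% of all genes, the latter 5 when any 1 library was left out. Among those higher were the keratin Krt4 at 52.1 and 76.6 CPM in organoids, 1.63 and 1.99 CPM in assembloids and 1.42 and 0.710 CPM in tissue (log2 fold change 4.98, SE 0.30, adjusted p = 6.31e-06), mesothelin, Msln (2.07), and clusterin, Clu (2.03). Among those lower were Sprr1a, at 5.02 and 10.3 CPM in organoids, 260 and 330 CPM in assembloids and 1.14 and 3.77 CPM in tissue (log2 fold change -5.47, SE 0.42, adjusted p = 1.77e-05), Ly6d, at 2.44 and 2.33 against 62.6 and 54.3 CPM (log2 fold change -4.77, SE 0.32, adjusted p = 1.16e-05), and the urokinase receptor Plaur (-1.55). Both Krt4 and Sprr1a were nearly silent in tissue, each being high in 1 of the 2 cultures. Ly6a, the Sca-1 antigen, was abundant in both at 1460 and 1234 and 722 and 951 CPM, against 148 and 169 CPM in tissue, and did not pass the test between them (log2 fold change 0.56, SE 0.39, adjusted p = 0.262). Ly6 genes are close copies of each other.

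YAP and TEAD genes were called higher for 5 and lower for 2 of 19 (26.3% and 10.5%, against 21.1% and 26.8% of all genes), with a median of 0.12. The median ran from 0.04 without organoid library 2 to 0.45 without organoid library 1, and was -0.03 with cells thinned to 2000 UMIs. Ankrd1, a YAP target, stood at 3.37 and 6.09 CPM in organoids, 0.319 and 0.136 CPM in assembloids and 0 and 0 in tissue (log2 fold change 4.11, SE 0.54, adjusted p = 0.000276). The factor Tead2 (16.4 and 15.8 against 3.3 and 3.28 CPM, log2 fold change 2.14) and Ajuba (18 and 20.6 against 3.1 and 5.78 CPM, 1.98) were higher as well, and the target Ccn1 was lower at 13.5 and 15.4 against 27.1 and 27.7 CPM (log2 fold change -1.08, SE 0.24, adjusted p = 0.00494). Axl was lower too, with a stromal share estimated at 41.8%.

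Genes of hypoxia and glycolysis were lower in organoids for 16 of 28 members (57.1% against 26.8% of all genes), with a median of -1.19, and the remaining 12 did not pass the test. Adm, adrenomedullin, stood at 2.02 and 4.98 CPM in organoids, 150 and 141 CPM in assembloids and 1.69 and 2.49 CPM in tissue (log2 fold change -5.61, SE 0.43, adjusted p = 1.78e-05). After thinning to 2000 UMIs, 0.421% and 1.08% of organoid and 24.1% and 22.1% of assembloid cells held it, against 6.74% and 4.59% of stromal cells. Ndrg1 stood at 22.5 and 57.8 CPM in organoids, 484 and 568 CPM in assembloids and 72.9 and 77.2 CPM in tissue (log2 fold change -3.93, SE 0.45, adjusted p = 0.000140), and the oxidoreductase Ero1l at 64.1 and 122, 712 and 849 and 30.7 and 34 CPM in that order (log2 fold change -3.27, SE 0.40, adjusted p = 0.000199). Assembloids thus exceeded tissue as well as organoids in these 3 genes. The glucose transporter Slc2a1 (-2.49), the mitophagy gene Bnip3 (-1.99), hexokinases Hk1 (-1.89) and Hk2 (-1.36) and the regulator Pfkfb3 (-1.71) were called, and so was Higd1a at 434 and 482 against 1657 and 1518 CPM (log2 fold change -1.96, SE 0.39, adjusted p = 0.00247). The enzymes of lower glycolysis did not pass the test, among them Gapdh at 2575 and 2119 against 3659 and 4281 CPM (log2 fold change -0.89, SE 0.42, adjusted p = 0.106). Organoids and assembloids were both above tissue for Gapdh, which stood at 673 and 793 CPM there. Hk2 lost its call without assembloid 1 or organoid 1 (log2 fold change -1.14 to -0.94, adjusted p up to 0.242).

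Egln3, a prolyl hydroxylase that HIF induces and that marks HIF for degradation, stood at 32.9 and 50.9 CPM in organoids, 221 and 256 CPM in assembloids and 9.22 and 10.4 CPM in tissue (log2 fold change -2.70, SE 0.33, adjusted p = 0.000203). Its window is printed because it had the largest change among called members of this list whose promoter holds the core letters ACGTG of a hypoxia response element. It lies at chr12:54203825-54204124 (minus strand) of GRCm38.p6, with the match 229 bases before the start.
Egln3: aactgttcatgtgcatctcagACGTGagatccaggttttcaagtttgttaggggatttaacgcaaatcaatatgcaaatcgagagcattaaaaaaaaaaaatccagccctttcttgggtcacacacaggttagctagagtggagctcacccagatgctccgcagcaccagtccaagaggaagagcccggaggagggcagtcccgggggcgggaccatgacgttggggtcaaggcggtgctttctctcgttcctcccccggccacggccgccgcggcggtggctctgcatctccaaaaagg
ACGTG on either strand was found in 11 of 14 called members with a window, and in 19.6% of all windows or 21.8% of all genes. Among all tested members of this list with a window, called or not, 18 of 25 held it. The letters are also part of the E-box CACGTG.

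Of 24 genes of fatty acid oxidation and ketogenesis, 9 were lower in organoids (37.5% against 26.8% of all genes), with a median of -0.65, and 5 without assembloid library 2. The carnitine carrier Slc25a20 stood at 9.98 and 13.6 CPM in organoids, 49 and 65.1 CPM in assembloids and 60.0 and 68.2 CPM in tissue (log2 fold change -2.44, SE 0.27, adjusted p = 0.000104), and the lipid droplet gene Plin2 at 12.9 and 13, 40.1 and 59.3 and 74.7 and 78.2 CPM (log2 fold change -2.08, SE 0.28, adjusted p = 0.000311). Cpt1a, which commits fatty acids to oxidation, had a log2 fold change of -1.06. Of 23 cholesterol genes, 3 (13%, under the 21.1% of all genes) were higher and 1 (4.35%, under 26.8%) lower. The higher were 1 without either assembloid library and 8 without organoid library 2. Among them were Acat2 at 119 and 120 against 28 and 27.4 CPM (log2 fold change 1.95, SE 0.30, adjusted p = 0.000603), higher, and Insig1, lower, at 50.3 and 51.8 against 112 and 132 CPM (log2 fold change -1.41, SE 0.30, adjusted p = 0.00337). Among 28 genes of oxidative phosphorylation, 0 passed edgeR's test and 0 had an unadjusted p under 0.05, while DESeq2 called 2 lower. Of 5 creatine genes tested, 2 (40.0% against 26.8% of all genes) were lower and 1 (20% against 21.1%) higher. The transporter Slc6a8 (6.32 and 8.67 against 25 and 30.4 CPM, log2 fold change -2.06, SE 0.25, adjusted p = 0.000178) and the kinase Ckmt1 (-1.10) were lower, and the synthesis gene Gatm was higher (13.8 and 13.1 against 3.46 and 3.6 CPM, log2 fold change 1.78, SE 0.28, adjusted p = 0.000721). Cpt1a and Ckmt1 lost their calls under some settings, given with the log2 fold change there, Cpt1a without organoid 1 or assembloid 2 (-0.89 to -0.87, adjusted p up to 0.0639) and Ckmt1 without assembloid 1 or assembloid 2 or organoid 2 (-1.19 to -0.87, adjusted p up to 0.213).

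Interferon-stimulated genes were lower in organoids for 16 of 31 members (51.6% against 26.8% of all genes) and higher for 1 (3.23% against 21.1%), with a median of -1.08. Without the marker limits on cells, which admits more stromal and macrophage cells, 21 were lower and the median was -2.01. Ifit1, which binds foreign RNA, stood at 0.0320 and 0.0880 CPM in organoids, 4.83 and 6.32 CPM in assembloids and 0.558 and 1.31 CPM in tissue (log2 fold change -6.81, SE 0.52, adjusted p = 1.66e-05), and Ifit3 at 0.0160 and 0.0110, 1.89 and 2.77 and 0.193 and 0.246 CPM (log2 fold change -7.36, SE 0.64, adjusted p = 3.32e-05). Stromal RNA could supply 10.8% of the assembloid level of Ifit1, 25.2% of that of Ifit3 and 36.1% of that of Isg15. The genes Ifi35 (-2.82), the transcription factor Irf7 (-2.76) and Ifi27l2b (-2.21) were called. The class I gene H2-K1 and the signal transducer Stat2 did not pass the test. Ifitm3, which hinders virus entry, was higher in organoids at 234 and 199 against 90.3 and 41 CPM (log2 fold change 1.54, SE 0.45, adjusted p = 0.0177), but without the marker limits on cells its log2 fold change was -0.21. Ifitm3 lost its call without organoid 1 or assembloid 2 or without the marker limits on cells (log2 fold change -0.21 to 1.27, adjusted p up to 0.642).

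The windows of Ifit3 and Ifit1 are printed because these genes had the largest changes and hold the interferon-stimulated response element letters (GAAA, 2 bases of any kind, GAAA), each with 2 matches in capitals. That of Ifit3 lies at chr19:34583279-34583578 (plus strand) with matches 156 and 122 bases before the start, and that of Ifit1 at chr19:34640639-34640938 (plus strand) with matches 104 and 85 bases before it, both on GRCm38.p6.
Ifit3: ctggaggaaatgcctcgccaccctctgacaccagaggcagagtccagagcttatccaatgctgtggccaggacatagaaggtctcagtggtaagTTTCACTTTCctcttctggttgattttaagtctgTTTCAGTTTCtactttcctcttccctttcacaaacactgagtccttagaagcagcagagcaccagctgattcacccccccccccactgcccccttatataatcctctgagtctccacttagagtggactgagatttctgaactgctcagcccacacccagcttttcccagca
Ifit1: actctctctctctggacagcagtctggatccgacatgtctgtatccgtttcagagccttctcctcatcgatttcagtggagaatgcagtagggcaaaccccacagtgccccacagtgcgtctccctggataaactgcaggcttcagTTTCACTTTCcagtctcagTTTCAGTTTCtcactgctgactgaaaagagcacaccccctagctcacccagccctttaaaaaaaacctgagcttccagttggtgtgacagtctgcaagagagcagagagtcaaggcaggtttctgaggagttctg
On either strand, 8 of 13 called members with a window held the letters, 7 lower and 1, Ifitm3, higher in organoids. They were found in 3.44% of all windows or 3.99% of all genes. Among all tested interferon members with a window, called or not, 13 of 25 held them.

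Of 28 genes of mucosal defence tested, 12 (42.9% against 26.8% of all genes) were lower and 6 (21.4% against 21.1%) higher. Dmbt1 stood at 5.1 and 5.25 CPM in organoids, 412 and 510 CPM in assembloids and 696 and 637 CPM in tissue (log2 fold change -6.62, SE 0.43, adjusted p = 9.28e-06). At 2000 UMIs a cell, 1.05% and 0.858% of organoid and 48.9% and 51.4% of assembloid cells held it, against 0.0674% and 0.0114% of stromal cells. The acute phase protein Saa1 stood at 1.14 and 0.121 CPM in organoids, 113 and 64.5 CPM in assembloids and 350 and 257 CPM in tissue (log2 fold change -7.14, SE 0.92, adjusted p = 0.000380), with its close copy Saa2 changed alike (-7.05). The protease inhibitor Slpi stood at 0.752 and 1.44 against 59.5 and 209 CPM (log2 fold change -7.10, SE 0.61, adjusted p = 3.56e-05), and assembloid library 2 was over 3-fold above library 1. The peroxide-making pair Duox2 (-3.06) and Duoxa2 (-4.82) was lower in organoids. Higher in organoids were lysozyme Lyz1, a Paneth cell gene of the small intestine, at 9.88 and 5.58 CPM against 0.0664 and 0.0582 CPM in assembloids and 1.09 and 2.43 CPM in tissue (log2 fold change 6.81, SE 0.56, adjusted p = 2.51e-05), and the oxidase Nox1 at 36 and 51.4 against 6.1 and 8.25 CPM (log2 fold change 2.44, SE 0.26, adjusted p = 9.65e-05). Wfdc2 (979 and 746 against 267 and 302 CPM) and the chemokine Cxcl5 were higher as well, with log2 fold changes of 1.47 and 2.01. The immunoglobulin receptor Pigr, at 225 and 282 against 124 and 239 CPM, did not pass the test (log2 fold change 0.34, SE 0.36, adjusted p = 0.456), and tissue exceeded both at 2701 and 2244 CPM. Of 6 MHC class II genes, 3 (50% against 26.8% of all genes) were lower in organoids. They were H2-Ab1 at 0.139 and 0.209 against 3.3 and 2.98 CPM (log2 fold change -4.37, SE 0.46, adjusted p = 9.09e-05), Cd74 at 0.496 and 0.759 against 7.0 and 4.29 CPM (log2 fold change -3.39, SE 0.43, adjusted p = 0.000226) and the activator Ciita (-3.06). Macrophages also express these 3, and macrophage markers moved with them, with C1qa at 7.03 and 3.22 CPM and Lyz2 at 25.9 and 13.5 CPM in the assembloid epithelium against 3.66 and 4.09 and 14.8 and 16.2 CPM in the stromal libraries. With no stromal or macrophage UMI of the rule allowed in a cell, Ciita was not tested, H2-Ab1 and Cd74 had log2 fold changes of -4.29 and -3.35 and were both called, and the median over the 5 tested was -0.72 in place of -2.01 over 6. Wfdc2 and Ciita lost their calls under some settings, given with the log2 fold change there, Wfdc2 without assembloid 1 or assembloid 2 (1.49, adjusted p up to 0.104) and Ciita without organoid 1 or organoid 2 (-3.16 to -2.81, adjusted p up to 0.118).

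Immediate early and heat shock genes were lower in organoids for 21 of 28 members (75% against 26.8% of all genes), with a median of -1.48. Hspa1a, the inducible Hsp70, stood at 3.11 and 3.54 CPM in organoids, 146 and 223 CPM in assembloids and 208 and 257 CPM in tissue (log2 fold change -5.94, SE 0.38, adjusted p = 9.16e-06), and its near-identical copy Hspa1b was lower too, by less (-3.80). Hspb1 stood at 5.44 and 5.89, 212 and 200 and 17.8 and 16.4 CPM (log2 fold change -5.35, SE 0.37, adjusted p = 1.19e-05), so that in this gene assembloids exceeded tissue. Atf3 (-2.78), Klf6 (-2.85), Fos (-2.04) and Jun (75.3 and 62.6 against 259 and 327 CPM, log2 fold change -2.22) were called, and tissue was highest for Jun at 829 and 934 CPM. Assembloids were dissociated with Liberase TL and DNase I and then TrypLE, and organoids with TrypLE alone. Tissue crypts were freed with EDTA and DTT before TrypLE. Dissociation and culture can therefore not be told apart in these genes or in any other gene compared. Stromal cells of assembloids stood at 349 and 885 CPM of Hspa1a. Of 19 genes of the unfolded protein and amino acid response, 4 (21.1%, under the 26.8% of all genes) were lower, headed by the chaperone Dnajb9 (11 and 14.5 against 28.5 and 42.4 CPM, log2 fold change -1.64, SE 0.26, adjusted p = 0.000758), and 2 (10.5%, under 21.1%) higher, Sdf2l1 (99.4 and 56 against 20.9 and 31.4 CPM, log2 fold change 1.48, SE 0.38, adjusted p = 0.00974) and Psat1 (0.92). Without assembloid library 2, 2 were lower, and the count of those higher ran from 1 without either assembloid library or organoid library 1 to 6 without organoid library 2. Sdf2l1 and Psat1 lost their calls under some settings, given with the log2 fold change there, Sdf2l1 without organoid 1 (0.82, adjusted p = 0.0670) and Psat1 without assembloid 1 or assembloid 2 or with cells thinned to 2000 UMIs (0.75 to 1.05, adjusted p up to 0.284).

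Among signals that epithelium sends to stroma, 15 of 27 tested (55.6% against 26.8% of all genes) were lower and 4 (14.8% against 21.1%) higher in organoids. Without organoid library 1 the counts were 8 and 1, and with cells thinned to 2000 UMIs they were 9 and 2. Vegfa, the angiogenic factor, stood at 23.1 and 37.4 CPM in organoids, 113 and 93.1 CPM in assembloids and 20.8 and 19.8 CPM in tissue (log2 fold change -1.97, SE 0.31, adjusted p = 0.000757), and the fibroblast mitogen Pdgfa at 31.5 and 25.4, 63.6 and 89.5 and 49.8 and 46.4 CPM (log2 fold change -1.55, SE 0.31, adjusted p = 0.00261). Indian hedgehog, Ihh (-0.98), Tgfb1 (-0.81) and the endothelin Edn2 (-4.79) were also lower. Tnfsf10, or TRAIL, stood higher in organoids at 3.9 and 3.63 against 0.212 and 0.213 CPM (log2 fold change 3.99, SE 0.45, adjusted p = 0.000123), and so did Fgf9 at 2.06 and 1.74 against 0.378 and 0.388 CPM (log2 fold change 2.17, SE 0.47, adjusted p = 0.00396). Some members counted among the 15 lower are stromal genes. Frzb, a secreted Wnt inhibitor, was at 0 in both organoid libraries and at 2.16 and 0.504 CPM in assembloids. The mean of the assembloid libraries is at least 124-fold above the level of 3 UMIs over the organoid group, and library 2 alone lies below that mean. Stromal RNA could supply 68.4% of the assembloid level. For Dkk2, Dkk3 and Fgf2 the share was 100%, 101% and 111%, and for Inhba 24.8%. Leaving out every gene with a share over 10%, a step chosen after seeing the data, left 3664 genes called higher and 4416 called lower. The share rests on the carry-over of fibroblast genes and does not measure macrophage RNA. Ihh, Tgfb1, Fgf9, Dkk2, Fgf2 and Inhba lost their calls under some settings, given with the log2 fold change there, Ihh without assembloid 2 or organoid 2 (-0.7 to -0.58, adjusted p up to 0.159), Tgfb1 without assembloid 1 or organoid 1 or assembloid 2 or with library sizes alone (-0.82 to -0.62, adjusted p up to 0.129), Fgf9 without organoid 1 (1.89, adjusted p = 0.0669), Dkk2 without organoid 1 (-3.94, adjusted p = 0.0536), Fgf2 without organoid 1 (-3.97, adjusted p = 0.0625) and Inhba with cells thinned to 2000 UMIs (-9.74, adjusted p = 0.223).

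**Figure D4:**
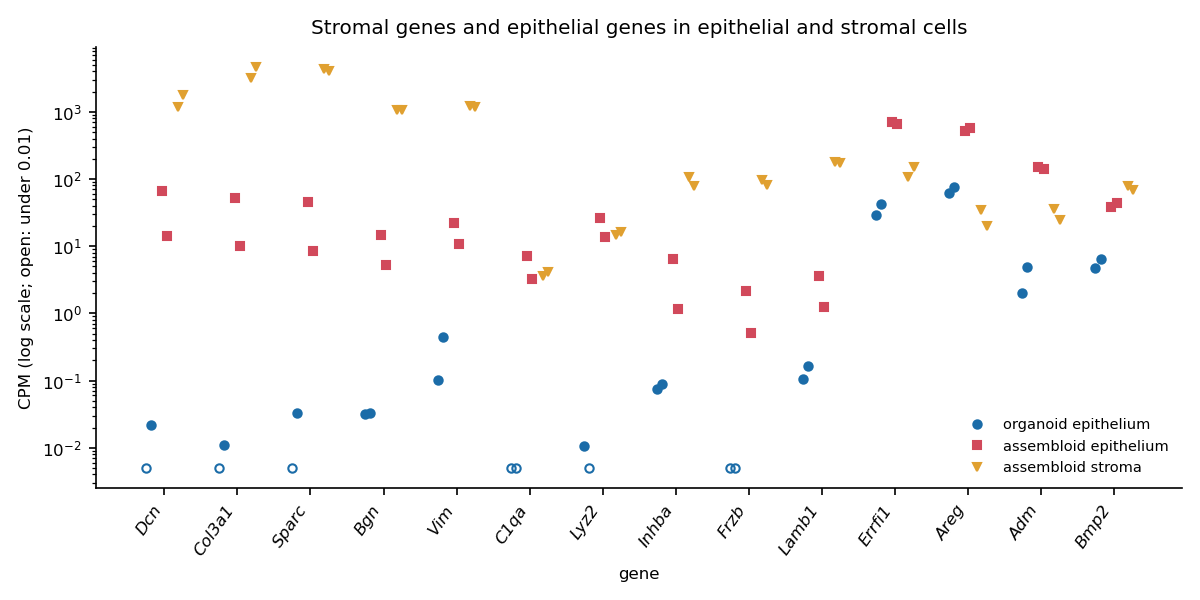
Level in CPM, on a log axis, of stromal, macrophage and epithelial genes in the organoid epithelium, the assembloid epithelium and the stromal cells of assembloids, with 1 point per library and open points for values under 0.01. Fibroblast genes such as Dcn, at 67 and 14.4 CPM in assembloid epithelium, lie far below the stroma at 1170 and 1755 CPM, while Errfi1, Areg and Adm lie above it.

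Integrin and basement membrane genes were lower for 9 (34.6% against 26.8% of all genes) and higher for 2 (7.69% against 21.1%) of 26, the latter 4 without assembloid library 1 and 1 without organoid library 1. Lama3, the alpha chain of laminin-332, stood at 0.160 and 0.407 CPM in organoids, 14 and 15 CPM in assembloids and 8.28 and 8.39 CPM in tissue (log2 fold change -5.93, SE 0.40, adjusted p = 1.16e-05). The beta chain of the same laminin, Lamb3 (-1.48), was lower in organoids too. Itgav (17.8 and 37.5 against 73.7 and 106 CPM, log2 fold change -1.90, SE 0.33, adjusted p = 0.00123), Itgb5 (-1.57) and Itgb1 (155 and 156 against 276 and 297 CPM, log2 fold change -1.04) were the integrins called. Lamb1 had a stromal share estimated at 75.1%. The laminin receptor Bcam was higher in organoids at 9.73 and 11 against 2.88 and 1.62 CPM (log2 fold change 2.01, SE 0.37, adjusted p = 0.00162). Itgb1 lost its call without assembloid 1 or assembloid 2 or organoid 2 (log2 fold change -1.06 to -0.82, adjusted p up to 0.204).

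The epithelial identity of both cultures was checked with 26 genes, of which 5 were higher and 4 lower in organoids. These shares, 19.2% and 15.4%, were below those of all genes. Without assembloid library 1, 2 were higher, without organoid library 1 it was 3, and DESeq2 called 8 lower. All of Krt8, Krt18, Krt19 and Cldn7 were abundant, Krt8 at 1235 and 1229 CPM in organoids, 2690 and 3603 CPM in assembloids and 2686 and 3299 CPM in tissue (log2 fold change -1.49, SE 0.40, adjusted p = 0.0123). E-cadherin, Cdh1, was lower in organoids at 140 and 276 against 464 and 581 CPM (log2 fold change -1.53, SE 0.38, adjusted p = 0.00767), as was Cdh17 (-1.70). The nuclear receptor Hnf4g (54.6 and 81.4 against 16.7 and 19.7 CPM, log2 fold change 1.72, SE 0.26, adjusted p = 0.000622), Foxa2 (1.40) and Foxa3 (1.16) were higher in organoids. Of 19 Hox genes and other factors of position along the gut, 7 (36.8% against 21.1% of all genes) were higher and 2 (10.5% against 26.8%) lower, with 3 higher without assembloid library 1 and 0 lower without assembloid or organoid library 2. The called genes of the HoxB cluster were Hoxb3 (7.39 and 23.1 against 2.3 and 4.59 CPM, log2 fold change 1.94, SE 0.44, adjusted p = 0.00525), Hoxb4 (1.72), Hoxb5 (1.15), Hoxb6 (1.02) and Hoxb8 (0.93), and Hoxb3 stood at 0.472 and 0.246 CPM in tissue. Krt8, Cdh1, Foxa2, Foxa3, Hoxb3, Hoxb5, Hoxb6 and Hoxb8 lost their calls under some settings, given with the log2 fold change there, Krt8 without assembloid 1 or assembloid 2 (-1.6 to -1.35, adjusted p up to 0.108), Cdh1 without assembloid 2 (-1.44, adjusted p = 0.0581), Foxa2 without organoid 1 (1.18, adjusted p = 0.0870), Foxa3 without assembloid 1 (1.04, adjusted p = 0.0762), Hoxb3 without organoid 2 (1.19, adjusted p = 0.0764), Hoxb5 without organoid 2 (0.58, adjusted p = 0.272), Hoxb6 without assembloid 1 or organoid 2 (0.4 to 0.9, adjusted p up to 0.254) and Hoxb8 without assembloid 1 or organoid 2 (0.82 to 0.87, adjusted p up to 0.0849).

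More organoid cells held UMIs of cell cycle genes, and cells were therefore also compared within 2 classes of that count. With each cell thinned to 2000 UMIs, a cell with at least 5 UMIs of the DNA replication and mitosis lists formed the upper class, which took in 90.6% and 87.3% of organoid cells, 53.3% and 30.2% of assembloid cells and 15.7% and 16.8% of tissue cells. Among these cells, 4777 of 13323 genes tested (35.9%) were called, 1802 (13.5%) higher and 2975 (22.3%) lower in organoids, and 2183 were called without assembloid library 1. Wnt and stem genes were higher for 14 of 24 members (58.3%, median 1.41) and ribosome biogenesis for 15 of 24 (62.5%, median 1.12). Colonocyte genes were lower for 19 of 26 (73.1%, median -2.69), goblet genes for 17 of 24 (70.8%, median -2.13), EGF family genes for 12 of 20 (60.0%, median -1.56), hypoxia genes for 16 of 28 (57.1%, median -1.18) and immediate early genes for 22 of 28 (78.6%, median -1.50). In single genes, Lgr5 had a log2 fold change of 4.09 (SE 0.46), Errfi1 -4.34 (SE 0.56) and Muc2 -3.47 (SE 0.42) here, and all 3 were called. The upper class has no upper bound, so the counts of organoid and assembloid cells in it are not matched. The UMIs counted include free RNA, and the classes are ranges of 1 count, not cell types or a call of dividing cells.

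Cells without any UMI of these lists were few in organoids, 61 and 36 cells, or 1.28% and 0.792%, against 1043 and 996 assembloid cells, or 5.55% and 16.8%. In these cells 926 of 8054 genes tested (11.5%) were called, 341 (4.23%) higher and 585 (7.26%) lower. Leaving out any 1 of the 4 libraries left between 80 and 167 genes called. The organoid sums are so small here that a few UMIs carry a gene past the filter on low counts. A gene that passed through the group where it is high had to differ, and the counts and medians of lists are for that reason not read. Of 25 enteroendocrine genes 5 were tested, and of 27 Wnt and stem genes 18. Lgr5, which passed through organoids, had 17 and 13 UMIs in organoids and 5 and 15 in assembloids, or 139 and 181 against 2.4 and 7.53 CPM, and this is a description with no test. Errfi1 had 12 and 11 UMIs in organoids and 2275 and 1991 in assembloids, or 98.4 and 153 against 1091 and 999 CPM (log2 fold change -3.59, SE 0.50). It was called. Whether fold changes differ between the 2 classes was not tested, and the genes tested are not the same in both.

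**Figure D5:**
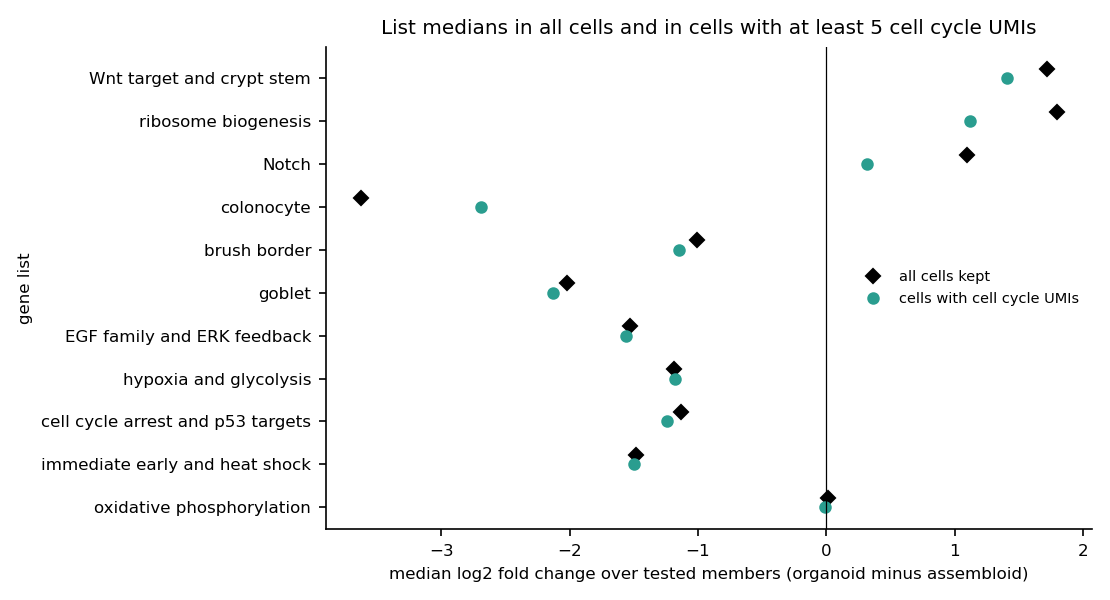
Median log2 fold change, organoid minus assembloid, over the tested members of 11 gene lists, in all cells kept and in cells with at least 5 cell cycle UMIs after thinning to 2000 UMIs a cell. Medians of the Wnt and stem list were 1.72 and 1.41, and those of the colonocyte list -3.63 and -2.69.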

How the data were processed

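Single-cell 3' libraries of epithelial cells from colon organoids, colon assembloids and colon tissue and of assembloid stromal cells were used, 2 per group. The deposited gene-by-barcode matrices hold counts of UMIs that the authors made with Cell Ranger (version 6 and genome build mm10 in the submitters' processing notes, whereas the file headers name 7.1.0 for the epithelial and 6.0.1 for the stromal libraries, so stromal levels set beside epithelial ones come from another version, whose default treatment of reads in introns differs). The counts are not normalized, and their totals per library are given in the report. The rows named by more than 1 gene identifier or not found left Aldoa, Ddit3, Mx1 and Pla2g2a out of the lists. No doublet caller was run, and an alternative leaves out the 6% deepest cells of each library.

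UMIs of the cells kept were summed per library with Python 3.11.15 (numpy 2.4.6, scipy 1.17.1, pandas 2.3.3) and tested 2 against 2 with edgeR 4.0.16 in R 4.3.3 (filterByExpr, TMM normalization, quasi-likelihood fit, Benjamini-Hochberg adjustment over all genes tested). For shares and cycling classes, cells were thinned at random to 2000 UMIs and shallower cells were left out. Intervals on shares are exact (Clopper-Pearson) at 95% and, like floors of 3 UMIs, cover counting error only. On simulated counts for 18283 genes, the fit recovered 76 of 97 genes changed 4-fold and 12 of 96 changed 2-fold, with 5 false calls. These counts were drawn with the same dispersion for all genes and with few genes changed, unlike the data. The false calls therefore do not give the error rate of the calls reported here. The 2 libraries of equal number were not taken as pairs, since the labels do not say that a number marks a shared culture.

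Named genes are members of 35 lists, or the 10 called genes at each end of the fold changes whose mean log2 CPM reached 5 or more and whose groups did not overlap, without mitochondrial, ribosomal protein and immunoglobulin genes and Gm or Rik models. Members were picked for description by the highest levels (up to 5 a list), the largest called changes (up to 3 in each direction) and a printed promoter. Of 293 genes picked by level or change, 153 are named in the text, some with the fold change alone, and the others stand only in the counts of their lists. Further members were named by free choice from the lists, some of them for comparison with tissue. Values of some list members that count among the calls are not reported here. The comparison, its members and the lists were chosen with earlier results of these data known. The column with which the stromal share was computed is the mean stromal CPM times the median carry-over of 18 fibroblast genes. Promoter windows were matched by symbol to RefSeq starts on GRCm38.p6, and motifs were searched on both strands. The alternatives tried were DESeq2 1.42.0, its size factors, library sizes alone, no filter, 6 libraries in one fit, a replicate block, each library left out, other limits on cells, thinned cells and a test against a 2-fold change.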

Additional observations from a re-analysis of the deposited data

How the results depend on the processing

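No gene called between organoids and assembloids was called in the opposite direction under any alternative. DESeq2 called 3823 genes higher and 4801 lower in organoids, and 8185 of the 8907 calls (91.9%) were shared with it in the same direction. Testing against a 2-fold change left 1319 higher and 3316 lower. Thinning cells to 2000 UMIs left 2695 higher and 3246 lower. Leaving out 1 library gave 2219 to 3720 genes higher and 2715 to 5318 lower, with the lowest counts without organoid library 1, where a lone library is assumed to vary like the other group. In cells without a cell cycle UMI it gave 80 to 167 calls in place of 926, and in cells with at least 5 such UMIs 2183 to 4389 in place of 4777, with the lowest count without assembloid library 1. The correlation of the deviations of same-numbered libraries was -0.00231 over 18572 genes, and with the replicate number as a block 4033 genes were higher and 4944 lower. Using library sizes alone, chosen after seeing the data, moved the median of all genes by 0.16 on the log2 scale and gave 4708 higher and 4545 lower. Ifitm3 had the opposite sign, at -0.21, without the marker limits on cells. Of 242 named genes, 222 were called, and the test against a 2-fold change lost 51 of these, more than any other alternative. The median of a list changed sign for BMP response under 2 alternatives, YAP and TEAD under 1, ER and amino acid stress under 5 and oxidative phosphorylation under 4. Organoid library 1 holds the most UMIs and assembloid library 1 the most cells and the least UMIs a cell, so genes of low level are measured less well per cell there.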
